A study of Homo sapiens with 9 samples.

Results

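The comparison set p65 WT against empty vector, both under TNF, in 6 of the 9 libraries of the series: vector replicates 1, 2 and 3 and p65 WT replicates 4, 5 and 6. It took in every gene with enough counts, 18195 of the 58735 genes in the deposited table, and no gene was selected by its change. All libraries came from HEK293A, an established human embryonic kidney cell line, made p65 knockout. Cells received either an empty plasmid or one encoding p65 WT, and 24 h later TNF at 20 ng/mL for 2 h. Every group therefore shared the knockout and the TNF treatment, and no untreated group was analysed here, so the values say what p65 WT did to TNF-treated cells and not what TNF did. The remaining 3 libraries, of a form labelled p65 2CS, entered the fit only to share the estimate of the spread. Restoration was by transient plasmid, at a RELA transcript level far above the knockout's own, and the labels do not give the promoter of the plasmid or whether the knockout line was 1 clone. Nothing in the labels assigns the libraries of a group to separate cultures. The p-values therefore measure how these samples vary, and that variation may be technical.

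p65, encoded by RELA, is the subunit of the transcription factor NF-kB that carries a strong transactivation domain. It pairs mostly with p50, the product of NFKB1, and inhibitor proteins such as the product of NFKBIA hold the pair in the cytoplasm until TNF, through its receptors and the IKK kinases, has the inhibitor destroyed. The freed pair enters the nucleus, binds short DNA elements called kB sites and switches on genes of inflammation, adhesion, survival and its own restraint.

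RELA stood at 68.0, 68.9 and 65.8 CPM (counts scaled to 1e6 per library, on totals adjusted by TMM) with vector and at 9034, 8024 and 9906 CPM with p65 WT. The groups did not overlap. Reads from the plasmid and from the disrupted locus are counted together. Library totals ran from 17923114 to 20162267 counts with vector and from 15989601 to 16507689 with p65 WT. In a principal component analysis of the 500 genes most variable over the 6 libraries, 97.1% of their variance lay on a first axis that divided the groups. That choice favours genes that differ between the groups, so the share describes those genes alone and is no test of separation. Vector libraries had a read for 26153 to 26554 genes and p65 WT libraries for 27357 to 27527, although the latter were shallower. In bulk RNA, a change in the number of responding cells and a change in RNA per cell cannot be told apart, and here the share of cells that took up plasmid was not measured.

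Of the 18195 genes tested, 5244 (28.8%) passed an adjusted p of 0.05 in edgeR's quasi-likelihood test, 2976 (16.4%) of them higher and 2268 (12.5%) lower with p65 WT. Counts of lists and families below are to be read beside these shares, and no set test was run. With libraries scaled by their totals alone the split was 2554 higher and 3659 lower, and the median log2 fold of all genes moved from -0.02 to -0.07. The sizes were unlike in the 2 directions. RELA left out, 1140 genes were at least 2-fold higher (6.27% of those tested with RELA counted, 1141 genes), 472 at least 8-fold and 185 at least 64-fold, while 56 (0.308%) were at least 2-fold lower and 5 at least 4-fold. The median fold was 1.53 among the genes that rose and 1.17 among those that fell.

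**Figure D1:**
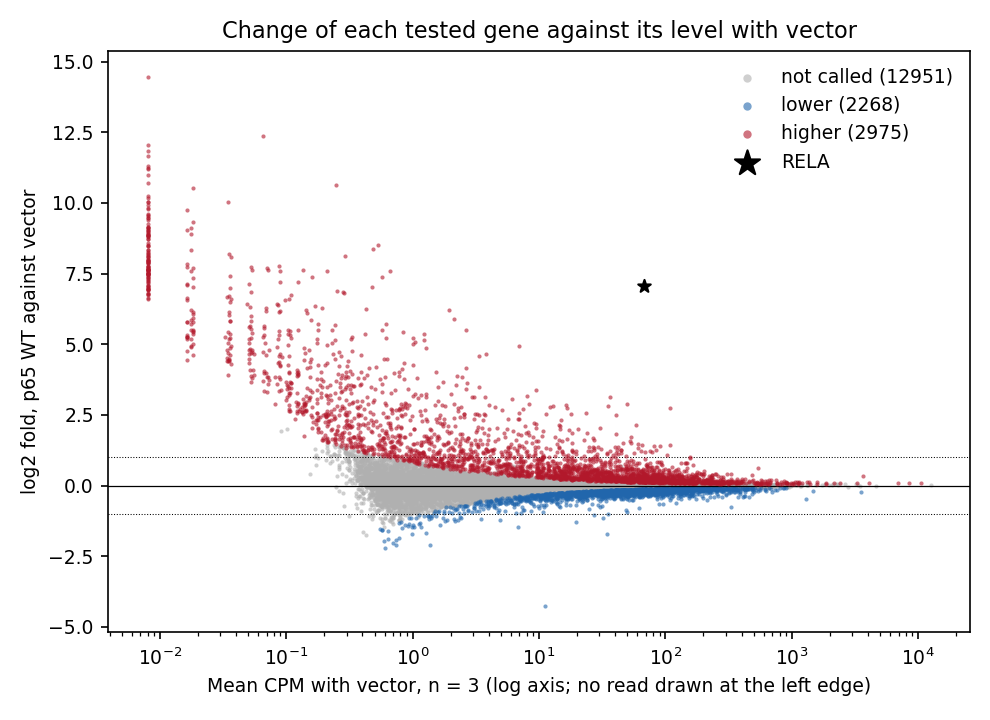
Each point is 1 tested gene, with its mean CPM over 3 vector libraries on a log axis and its log2 fold on the vertical axis. Dotted lines mark 2-fold, red points the 2975 genes higher besides RELA and blue points the 2268 lower. Genes with no read in the vector libraries are drawn at the left edge, where the fitted fold depends on the prior count and is no bound. Large folds lie at low vector levels and blue points stay within 2-fold nearly everywhere.

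The size of change was also described by the level with vector. Genes of low vector level enter the test partly through libraries where they are high, so an excess of rises among them is in part built in by the filter, and no reading is made of it. Among 2653 genes with a read but no more than 1 CPM with vector, 645 were at least 2-fold higher and 21 at least 2-fold lower. Among 8187 genes at 10 to 100 CPM the same counts were 98 and 6, and among 2317 genes at 100 CPM and over they were 4 and 0, although 496 and 526 of the latter passed the test in the 2 directions. A further 112 genes had no read with vector and passed the filter through the p65 libraries alone, so that they had to differ. Together the 1140 genes took 0.462% ± 0.003 of all counts with vector and 1.90% ± 0.09 with p65 WT (SD, n = 3). Protein-coding genes at 1 CPM or more numbered 13089 to 13129 in the vector libraries and 13516 to 13537 in the p65 WT libraries.

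Ranked by transcript gained per length, the first 3 genes were very abundant ones with small changes: MT-ND1 (fold 1.10), RPS2 (1.08) and MT-CYB (1.06). Below them, a few genes outside the known inflammatory set stood beside the classical targets. SLC12A7, a potassium-chloride cotransporter, had 110, 105 and 110 CPM with vector and 713, 713 and 751 CPM with p65 WT. Its level per kilobase went from 18.1 to 121 RPKM, a rise close in size to those of NFKBIA (15.3 to 133 RPKM) and ICAM1 (0.0664 to 109 RPKM). Its log2 fold was 2.75 ± 0.03 (SE), with no overlap of the groups. MSX1, a homeobox transcription factor of limb and craniofacial development, had 39.7, 40.1 and 41.4 CPM against 226, 216 and 240 CPM, or 19.1 against 107 RPKM. Further very abundant genes with small changes lay lower in the ranking, such as EEF2, a translation elongation factor. Its log2 fold was 0.08 ± 0.02, and its call was lost with totals-only scaling and without p65 WT replicate 6. MT-ND1 and MT-CYB, subunits of the respiratory chain encoded in mitochondria, lost their calls with DESeq2 and without p65 WT replicate 4. MT-CYB also lost its call with totals-only scaling, or when vector replicate 1 or 2 was left out.

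Other genes that were already transcribed and rose most had varied roles. SLC30A3, a zinc transporter of synaptic vesicles, went from 7.78, 8.80 and 7.56 CPM to 76.9, 62.7 and 79.0 CPM (log2 fold 3.17 ± 0.09). C1QTNF1, a secreted relative of the complement component C1q, went from 17.3, 16.4 and 15.8 to 123, 108 and 129 CPM. SLC2A6, a member of the glucose transporter family, rose from 35.0 ± 2.27 to 248 ± 19.1 CPM. In each of these genes every p65 WT library lay above every vector library. RILPL2, a regulator of ciliary transport, and FBLN5, an elastic fibre protein, rose by 2.81 and 2.77 on the log2 scale. Smaller rises were those of TNFAIP2 (23.7 to 141 CPM), named for its induction by TNF, ABCG1 (11.3 to 66.1 CPM), a cholesterol exporter, and CD83 (18.0 to 105 CPM), a surface marker of activated dendritic cells. Neuronal genes were among them too: GRIN1, the obligate subunit of NMDA receptors, had 7.62, 6.69 and 8.17 CPM against 50.7, 42.6 and 54.8 CPM, and ACHE, the acetylcholine-degrading enzyme, rose from 6.88 ± 0.27 to 35.0 ± 1.62 CPM.

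**Figure D2:**
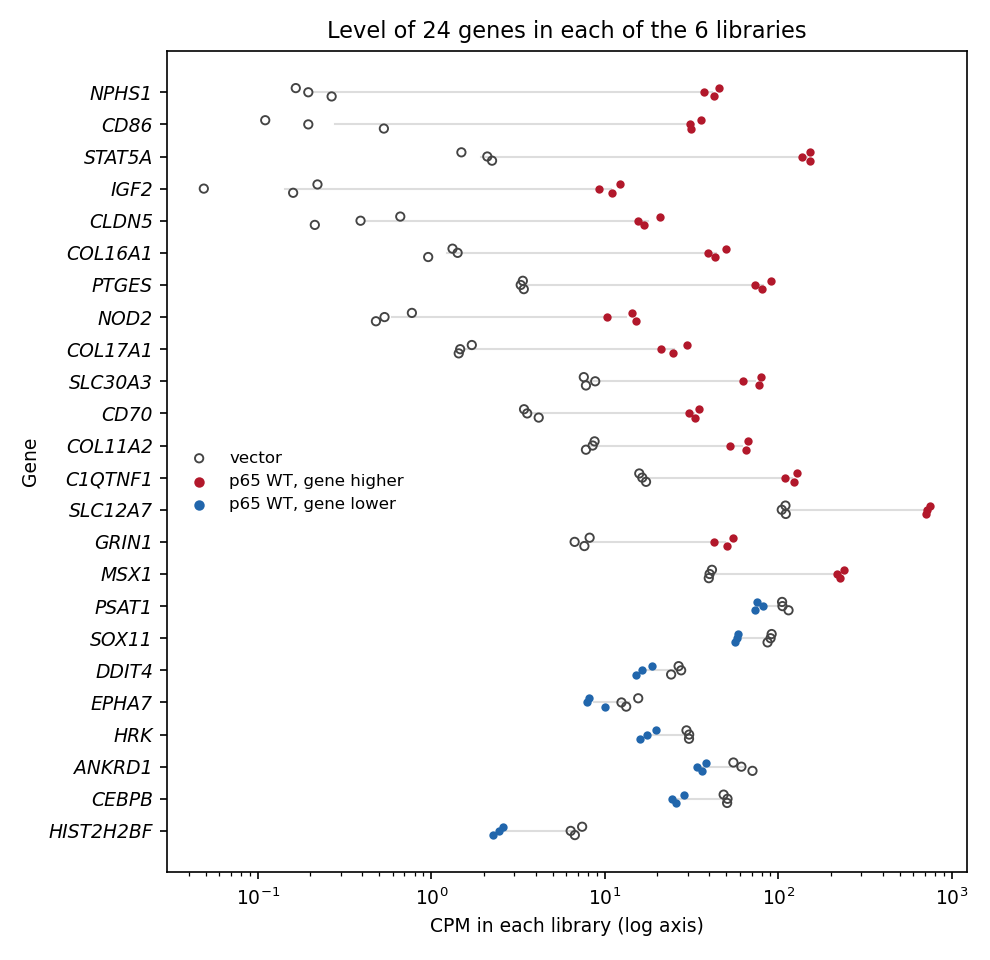
CPM of 24 genes in each library on a log axis, with open circles for the 3 vector libraries and filled circles for the 3 p65 WT libraries, ordered by log2 fold. Grey lines join the group means, red marks genes higher and blue genes lower with p65 WT. The genes were chosen with their values known, so the separation of the groups is in part built in by the choice. In all 24 genes the groups do not overlap, from NPHS1 (0.209 to 41.7 CPM) to HIST2H2BF (6.82 to 2.44 CPM).

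Of the genes silent in the knockout, with at most 3 reads over the vector libraries, the most abundant with p65 WT are described singly; all entered the test through the libraries where they were high. VSTM1, an inhibitory receptor of myeloid cells, was without a read in the vector libraries and stood at 26.9, 20.4 and 26.6 CPM in those given p65 WT, which is at least 471-fold higher against the floor of 3 counts over the group. APOL6, a lipid-binding protein of the apolipoprotein L family, also had no vector read and reached 16.3, 14.7 and 16.7 CPM, at least 304-fold higher. ZAN, a sperm membrane protein, had 2 vector reads and 43.5 ± 6.70 CPM with p65 WT, and its ratio was 1250 (95% counting interval 346 to 10300). For all 3 genes every p65 WT library was high. KRT74, a hair root keratin, CTSE, an aspartic protease of the stomach, and BATF, an AP-1 family factor of lymphocytes, had no vector read and were at least 215-fold, 150-fold and 114-fold higher. SLC52A3, a riboflavin transporter, had 1 vector read and 20.9 ± 2.76 CPM with p65 WT. The lung surfactant genes SFTPA2 (1 vector read, then 35.7 ± 1.27 CPM) and SFTPA1 (none, then 8.26 ± 1.32 CPM) are near-identical copies, so the division of reads between them is uncertain.

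The promoters of called genes were searched for the kB site as a description of where it lies. Of the tested genes, 12279 matched RefSeq's table of promoter windows (GRCh38.p14, 250 bases before to 50 after a start, the start nearest the gene's 5′ end), 417 of them by an older symbol. The stretches below, credited to RefSeq, hold the form GGGNNTTTCC on either strand, in capitals, in 10 promoters chosen across roles: inhibitors (NFKBIA, TNFAIP3), a subunit (NFKB1), chemokines (CCL20, CXCL1), an adhesion molecule (SELE), antigen presentation (TAP1), antiviral defence (OAS3), a receptor (TNFRSF9) and a collagen (COL7A1). Each is read 5′ to 3′ on the strand of its gene and lies upstream of the start.
NFKBIA, chr14:35404796-35404855, minus strand: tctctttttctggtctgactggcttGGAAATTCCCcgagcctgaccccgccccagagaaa
TNFAIP3, chr6:137867179-137867238, plus strand: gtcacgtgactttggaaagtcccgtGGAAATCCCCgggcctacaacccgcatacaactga
NFKB1, chr4:102501285-102501344, plus strand: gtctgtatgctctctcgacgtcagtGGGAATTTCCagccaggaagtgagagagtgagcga
CCL20, chr2:227813738-227813797, plus strand: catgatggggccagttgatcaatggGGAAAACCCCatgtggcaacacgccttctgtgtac
CXCL1, chr4:73869289-73869348, plus strand: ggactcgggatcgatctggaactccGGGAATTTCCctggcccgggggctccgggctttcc
SELE, chr1:169734139-169734198, minus strand: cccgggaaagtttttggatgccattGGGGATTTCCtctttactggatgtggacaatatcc
TAP1, chr6:32853742-32853801, minus strand: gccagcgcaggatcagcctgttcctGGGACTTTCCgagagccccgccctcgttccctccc
OAS3, chr12:112938319-112938378, plus strand: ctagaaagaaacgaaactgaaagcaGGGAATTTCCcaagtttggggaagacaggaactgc
TNFRSF9, chr1:7940879-7940938, minus strand: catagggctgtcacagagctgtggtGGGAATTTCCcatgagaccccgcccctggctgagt
COL7A1, chr3:48595452-48595511, minus strand: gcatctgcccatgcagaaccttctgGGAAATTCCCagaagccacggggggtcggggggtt

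In 4 of these 10, TNFRSF9, NFKB1, CXCL1 and OAS3, and in CXCL2, CXCL3, CXCL5 and CXCL6 besides, the capitals read GGGAATTTCC on the gene's own strand, and in NFKBIA and COL7A1 they are its reverse complement. Across protein-coding genes at least 2-fold higher, this variant was the most frequent, with 10 matches upstream of the start, followed by GGGGATTTCC with 8 and GGGACTTTCC with 5, chromosome 8 left out. The bases around the match are nearly the same in CXCL1, CXCL2 and CXCL3, and again in CXCL5 and CXCL6. Their matches are therefore not separate cases, and the order of the variants is no preference. TNFAIP3 held 2 matches, 67 to 58 and 55 to 46 bases upstream. The stretch above has the match nearer the start in capitals and holds the other in lower case. STAP2, a signalling adaptor, and FOXN4, a forkhead factor, also held 2. In NFKBIA the match lay 81 to 72 bases upstream, in CCL20 79 to 70 and in SELE 94 to 85.

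The shares of promoters with the form were set side by side by size of change, as a description. Among protein-coding genes, 59 of 1417 matched promoters (4.16%) of genes higher by under 2-fold held the form, against 138 of 7907 (1.75%) of genes not called and 14 of 1651 (0.848%) of genes lower by under 2-fold. Over all 11592 matched protein-coding genes the share was 2.12%, and 671 of all 35116 RefSeq windows (1.91%) held it. For genes higher by 2 to 4-fold, 4 to 16-fold and at least 16-fold the shares were 4.74%, 4.84% and 9.33%, but only 76.2%, 73.5% and 72.5% of those genes had a matched promoter, so this check is void for them as a comparison. With the sister form GGGNNTTCCC the shares were 4.02% for genes higher by under 2-fold, 2.50% for those not called and 1.94% for those lower by under 2-fold. The CCAAT box, a general promoter element, was held by 36.4%, 37.0% and 38.2% of the same promoters. Most promoters of genes that rose held no match in this window, and nothing follows from that about more distant sites.

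**Figure D3:**
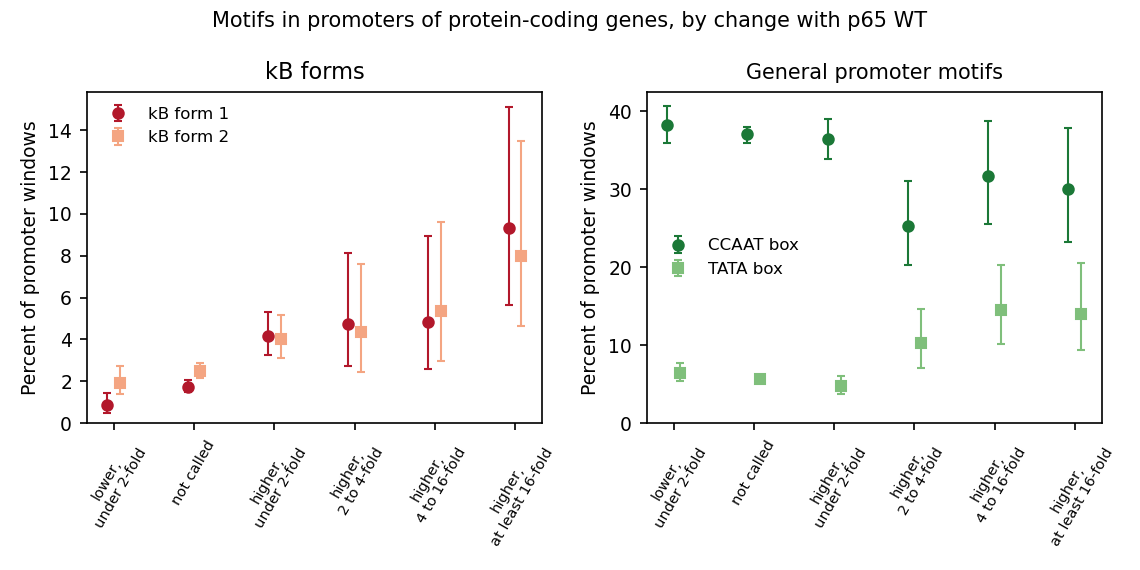
Percent of matched promoter windows of protein-coding genes that hold a motif, by class of change, with 95% Wilson intervals that cover counting error only. Left, the forms GGGNNTTTCC (form 1) and GGGNNTTCCC (form 2); right, the CCAAT box and TATAAA, all on either strand. The share of form 1 goes from 0.848% among genes lower by under 2-fold to 4.16% among genes higher by under 2-fold, and the 3 rightmost classes are void as a comparison because under 80% of their genes matched.

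Within the pathway, all 4 NF-kB subunits other than RELA rose, 3 of them by at least 2-fold, with a median log2 fold of 1.94. NFKB2, the p100 precursor of p52, had the largest rise, and REL, the c-Rel subunit, the smallest, from 17.3 to 24.9 CPM. Of 21 tested inhibitors of NF-kB 12 rose and 0 fell (12 and 3 with totals-only scaling), with a median log2 fold of 0.42 beside -0.02 for all genes. Besides the best-known members, NFKBIE rose (8.96 to 29.8 CPM). So did the atypical, nuclear inhibitors NFKBID (8.26, 7.33 and 8.17 to 28.9, 25.3 and 31.5 CPM) and BCL3 (5.37 to 17.6 CPM). NFKBIZ, another nuclear inhibitor, rose less, from 20.5 to 27.6 CPM, and the linear-ubiquitin protease OTULIN from 81.6 to 91.2 CPM. Receptors of the TNF family gave 13 rises and 4 falls among 24 tested, of 29 listed, and 4 of the 24 had under 0.5 CPM with vector and 0.5 or more with p65 WT. TNFRSF1B, the other TNF receptor, was without a vector read and reached 1.46 CPM, whereas TNFRSF1A, the receptor through which TNF acts on most cells, was at 50.3, 52.9 and 51.8 against 56.7, 53.1 and 58.5 CPM (log2 fold 0.12 ± 0.06, edgeR adjusted p = 0.11). TNFRSF12A, the TWEAK receptor, fell from 197 ± 5.84 to 146 ± 2.59 CPM.

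Ligands of the TNF family were tested in 8 of 18 cases, and 5 rose and 0 fell, but 2 of the 5, TNF and LTB, had under 0.5 CPM with vector and entered through the p65 libraries. CD70, a T-cell costimulator, had 4.16, 3.57 and 3.42 CPM with vector and 33.0, 30.5 and 34.8 CPM with p65 WT, and TNFSF9, the ligand of TNFRSF9, rose from 10.5 ± 1.05 to 35.0 ± 1.35 CPM. Groups did not overlap for either. Of 38 tested adaptors and kinases downstream of these receptors 14 rose and 5 fell (13 and 2 with DESeq2), and leaving out vector replicate 2, vector replicate 3 or p65 WT replicate 6 left 2 falls, and leaving out p65 WT replicate 5 left 3. CFLAR, which blocks death-receptor signalling, rose from 28.5 to 55.4 CPM and BIRC2, a ubiquitin ligase of the receptor complex, from 37.3 to 63.4 CPM. TANK, an adaptor of the TRAF proteins, rose from 12.6 to 21.1 CPM and RIPK2, the kinase beneath NOD2, from 19.2 to 28.7 CPM.

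Sensors and receptors that feed into NF-kB from other ligands gave 9 rises and 3 falls among 27 tested (9 and 5 with totals-only scaling), 3 of the 27 entering through the p65 libraries. NOD2, a sensor of bacterial wall fragments, had 0.480, 0.537 and 0.773 CPM against 15.1, 10.2 and 14.4 CPM, and IL18R1, a subunit of the interleukin-18 receptor, rose from 7.69 ± 0.91 to 33.3 ± 0.40 CPM. IL1RAP, the shared accessory chain of interleukin-1 receptors, fell from 21.3, 20.4 and 23.5 to 14.4, 15.2 and 14.0 CPM, with no overlap. MYD88, the adaptor of these receptors, had a log2 fold of -0.06 ± 0.15 (edgeR adjusted p = 0.82).

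Among lists with at least 10 tested genes, chemokines and interleukins had the highest shares of rises. Of 41 listed chemokines only 16 were tested, 12 of which rose and 0 fell, but 9 of the 16 had under 0.5 CPM with vector and 0.5 or more with p65 WT, so most entered the test through the group where they were high. CXCL10, an attractant of activated T cells, had no vector read and then 4.79, 5.25 and 5.55 CPM, so that it was at least 99.4-fold higher, and CCL5, another T-cell attractant, had 1 vector read and 5.09 ± 0.58 CPM. Of 16 tested interleukins and colony-stimulating factors, of 43 listed, 12 rose and 0 fell, 6 of the 16 entering in the same way. IL34, a second ligand of the CSF1 receptor, rose from 0.178 to 3.47 CPM, IL7, a lymphocyte survival factor, from 0.0736 to 2.11 CPM, and TSLP, an epithelial alarm cytokine, from 2.03 to 7.63 CPM. LIF, a cytokine of the interleukin-6 family, went from 12.1 to 14.9 CPM. Among their receptors 11 of 30 rose and 2 fell, 4 of the 30 entering so: OSMR, the oncostatin M receptor, rose from 24.9 ± 1.93 to 64.4 ± 1.86 CPM and IL31RA, with which it forms the interleukin-31 receptor, fell from 7.41 ± 0.92 to 4.09 ± 0.30 CPM.

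Growth factors and morphogens were divided, with 14 rises and 7 falls among 55 tested (14 and 11 with totals-only scaling, and 4 falls without vector replicate 3), 4 of the 55 entering through the p65 libraries. Over all genes 16.4% rose and 12.5% fell. IGF2, a fetal growth factor, had 0.160, 0.0489 and 0.221 CPM with vector and 11, 9.30 and 12.2 CPM with p65 WT. IGF2-AS, the transcript annotated opposite it, had no vector read and 13.7 ± 1.93 CPM. Since the strand setting of the counts is not known, reads of these overlapping genes cannot be told apart. FGF19, an endocrine growth factor of bile acid control, had 2 vector reads and 4.24 ± 0.58 CPM with p65 WT, and its ratio was 122 (95% counting interval 33.2 to 1010). VEGFA, the main driver of vessel growth, fell from 72.5 to 55.8 CPM.

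The STAT and IRF factors, which carry cytokine and interferon signals, showed one very large change. STAT5A had 2.24, 2.10 and 1.49 CPM with vector and 152, 136 and 153 CPM with p65 WT, a log2 fold of 6.23 ± 0.09 (edgeR adjusted p = 1.2e-39). Per length it went from 0.338 to 25.6 RPKM, above its neighbour and close relative STAT5B, which fell from 106, 105 and 106 to 94.5, 92.2 and 95 CPM, or from 16.4 to 14.6 RPKM. Of 33 tested genes of the list 16 rose and 3 fell (16 and 6 with totals-only scaling). IRF8, a myeloid factor, rose from 0.310 to 4.61 CPM, and SOCS2 and SOCS3, inhibitors of cytokine signalling, from 6.66 to 15.7 CPM and, for the latter, from 10.2 to 18.5 CPM.

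Interferon-stimulated effectors rose in 26 of 57 tested cases and fell in 1, 5 of the 57 entering through the p65 libraries. SP140, a chromatin reader of immune cells, had 3 vector reads and 3.8 ± 0.85 CPM with p65 WT, and PARP14, an ADP-ribosyl transferase, rose from 11.9 to 23.9 CPM. IFIT1, IFIT2 and IFIT3, neighbours that restrict viral RNA, rose from 1.94 to 7.01, 0.241 to 0.753 and 1.23 to 2.68 CPM, while the related IFIT5 fell from 43.5 to 36.8 CPM; these genes resemble each other and their reads may be shared. Classical heavy chains of MHC class I moved in smaller steps, HLA-B from 67.4 to 94.4 CPM and HLA-C from 259 to 331 CPM, with the same reservation. Of 37 proteasome genes 9 rose and 0 fell, among them the inducible regulator subunits PSME2 (31.4 to 53.8 CPM) and PSME1 (62.5 to 81.4 CPM). The apolipoprotein L family was tested in 3 of 6 members, and all 3 were higher, but 2 of them, APOL6 and APOL1, a trypanosome-killing factor (0.0368 to 4.05 CPM), had under 0.5 CPM with vector and entered through the p65 libraries.

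Matrix genes were counted apart from adhesion molecules. Of 50 tested collagens, laminins and matrix glycoproteins 26 rose and 1 fell, 12 by at least 2-fold, with a median log2 fold of 0.21. COL16A1, a fibril-associated collagen, had 0.959, 1.42 and 1.32 CPM with vector and 42.9, 39.2 and 49.6 CPM with p65 WT. LAMB3, a laminin chain of epithelial basement membranes, had 9.64, 7.67 and 7.23 against 30.5, 27.2 and 33.6 CPM. The groups did not overlap in either. COL17A1, a hemidesmosome collagen, rose from 1.54 ± 0.15 to 25.1 ± 4.45 CPM, COL2A1, the collagen of cartilage, from 0.550 to 7.68 CPM, and COL11A2, which joins it in fibrils, from 8.33 to 61.6 CPM. FN1, fibronectin, rose from 78.3 ± 1.09 to 177 ± 4.60 CPM.

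Among adhesion molecules 16 of 31 tested rose and 4 fell, 6 of the 31 entering through the p65 libraries. CD86, the costimulatory ligand of CD28, had 0.533, 0.195 and 0.110 CPM with vector and 31.4, 31.1 and 36.0 CPM with p65 WT. NINJ1, which ruptures the membrane of dying cells, rose from 60.3 to 169 CPM, and NCAM1 and CDH2, the neural adhesion molecule and N-cadherin, fell from 68.4 to 58.1 and from 83.5 to 72.1 CPM. Proteases and their inhibitors were mixed, with 11 rises and 8 falls among 36, the falls becoming 4 without p65 WT replicate 6 and 5 without vector replicate 2. ADAM12, a metalloprotease, rose from 0.243 ± 0.131 to 8.97 ± 0.58 CPM, and TIMP3, a matrix-bound inhibitor, fell from 258 to 201 CPM. SEMA7A, a membrane-anchored semaphorin, rose from 2.65 ± 0.54 to 28.3 ± 3.21 CPM, whereas EPHA7, an ephrin receptor, fell from 13.3, 12.5 and 15.6 to 9.95, 7.91 and 8.15 CPM.

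The list of lipid mediator enzymes held a single very large change. PTGES, the inducible synthase of prostaglandin E2, had 3.41, 3.27 and 3.37 CPM with vector and 80.3, 72.9 and 90.2 CPM with p65 WT, a log2 fold of 4.60 ± 0.09. PTGS2, the cyclooxygenase that supplies it, was at 1.97 ± 0.23 and 2.78 ± 0.16 CPM, a log2 fold of 0.50 ± 0.22 that did not pass (edgeR adjusted p = 0.096). PTGER4, a prostaglandin E2 receptor, rose from 6.32 to 16 CPM, and in the whole list 6 of 22 rose and 2 fell (6 and 4 with totals-only scaling, 6 and 0 with DESeq2). In the complement and acute phase list 8 of 20 rose and 4 fell, with PTX3, a soluble pattern receptor, going from 1.80 to 12.9 CPM and the protease C1S from 2.57 to 14.8 CPM. SOD2, the mitochondrial superoxide dismutase often induced through NF-kB, had 64.7, 60.2 and 60.4 against 65.6, 65.6 and 64.9 CPM, a log2 fold of 0.08 ± 0.05 (edgeR adjusted p = 0.20).

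**Figure D4:**
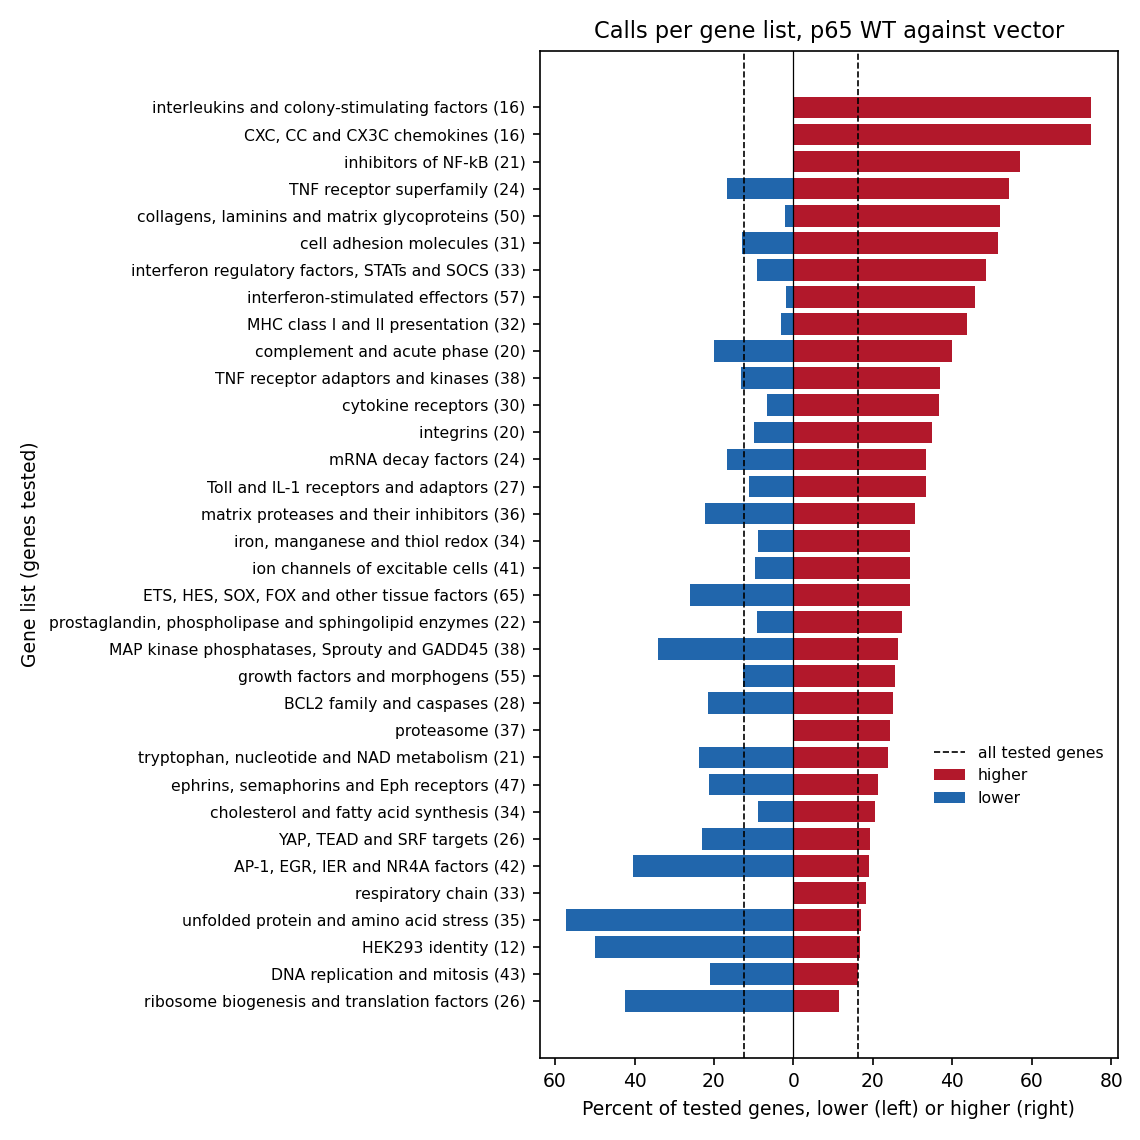
Share of each list's tested genes called higher (red, to the right) or lower (blue, to the left), for lists with at least 10 tested genes, whose number stands in brackets. Dashed lines mark the shares of all tested genes, 16.4% higher and 12.5% lower. Interleukins and chemokines have the longest red bars (12 of 16 each) and the stress list the longest blue bar (20 of 35).

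Falls were shallow and gathered in other lists. Of 35 genes of the unfolded protein and amino acid stress response 20 fell and 6 rose (23 and 3 with totals-only scaling, and 3 rises without p65 WT replicate 6), with a median log2 fold of -0.14. DDIT4, an inhibitor of mTORC1, fell from 24.1, 27.5 and 26.6 to 15.1, 16.3 and 18.6 CPM, and PSAT1, an enzyme of serine synthesis, from 114, 105 and 105 to 73.8, 81.0 and 74.9 CPM. ASNS, asparagine synthetase, fell from 6.13 ± 0.27 to 3.99 ± 0.43 CPM and SLC3A2, the heavy chain of amino acid exchangers, from 461 ± 21.1 to 353 ± 8.61 CPM. XBP1, the factor of the endoplasmic reticulum branch, rose instead, from 128 to 166 CPM. NUPR1, a stress-induced chromatin protein, fell from 5.97, 9.43 and 7.62 to 4.22, 4.81 and 3.64 CPM.

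AP-1, EGR and related immediate early factors gave 17 falls and 8 rises among 42 tested. CEBPB, an inflammatory bZIP factor, had 50.6, 50.9 and 48.3 CPM with vector and 25.6, 24.3 and 28.4 CPM with p65 WT, a log2 fold of -0.94 ± 0.07. MAFF, a small MAF factor, rose from 14.6 to 63.4 CPM. Over all genes tested 12.5% fell and 16.4% rose. Of the file's 45 bZIP factors 17 fell (37.8%) and 9 rose (20.0%). Of its 560 C2H2 zinc finger factors 118 fell (21.1%) and 59 rose (10.5%). Of its 10 Rel homology factors 8 rose and 0 fell. RELA, which the plasmid supplied, and the 4 subunits counted above belong to this group, so its count is in part a repeat. NFATC1 and NFATC2, calcium-regulated members of the Rel homology group, rose from 90.8 ± 1.82 to 239 ± 3.63 and from 3.74 ± 0.26 to 21.1 ± 0.98 CPM. Of 65 tested ETS, HES, SOX, FOX and other tissue factors 19 rose and 17 fell, 6 by at least 2-fold upward and 0 downward. Of 135 homeobox factors 33 rose (24.4%) and 16 fell (11.9%). ETS1, an ETS factor of endothelium and lymphocytes, rose from 36.4 to 67.3 CPM and GATA4, a factor of heart and endoderm, from 16.9 to 27.4 CPM. Among those that fell were SOX11, from 86.6, 90.1 and 91.4 to 55.9, 57.4 and 58.3 CPM, its relative SOX4, from 375 to 286 CPM, and ID3, an inhibitor of bHLH factors, from 174 to 125 CPM.

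MAP kinase phosphatases and other brakes on growth signals gave 13 falls and 10 rises among 38 (16 and 8 with totals-only scaling). DUSP1, which inactivates p38 and JNK, fell from 420 ± 2.27 to 329 ± 9.24 CPM, and SPRY4, a Sprouty inhibitor, rose from 3.55 to 9.81 CPM. The death regulators were split, 7 rising and 6 falling among 28 (6 and 9 with totals-only scaling), beside 16.4% higher and 12.5% lower over all genes. HRK, a BH3-only activator of death, fell from 30.5, 30.6 and 29.5 to 15.9, 17.6 and 19.8 CPM, BCL2L1, the survival protein BCL-xL, rose from 22.0 to 30.7 CPM, and BID, which links death receptors to mitochondria, from 31.5 to 45.0 CPM. ANKRD1, a target of YAP, fell from 70.9, 61.2 and 55.0 to 36.4, 34.0 and 38.0 CPM with no overlap.

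Of 36 tested histone genes 18 fell, 7 by at least 2-fold, and 1 rose, beside 12.5% lower over all genes. A further 35 of the 71 in the family were not tested. Poly-A capture takes transcripts with a poly-A tail, so these counts do not give total histone RNA. HIST2H2BF fell from 6.71, 6.35 and 7.39 to 2.27, 2.47 and 2.59 CPM and HIST1H2BD from 10.1 ± 0.48 to 5.83 ± 0.59 CPM, in a family of close copies whose reads are uncertain. DNAH17, an axonemal dynein, fell from 48.9 ± 4.57 to 26.9 ± 3.26 CPM, and IRX4, a cardiac homeobox factor, from 14.6 ± 1.46 to 8.69 ± 0.50 CPM. The largest fitted fall, that of SERF1A, rested on vector replicate 3, with 0.266, 0.342 and 32.6 CPM in the vector libraries against 0.441, 0.633 and 0.617 CPM with p65 WT. Without that library its log2 fold of -4.26 became 0.87, and SERF1A has a near-identical copy. AC007325.4, on a sequence outside the assembled chromosomes, had 2.50, 3.08 and 10.7 CPM with vector, and its log2 fold of -0.88 became 0.05 without the same library. The call was also lost with DESeq2 and without p65 WT replicate 4 or 6.

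In the lists for ribosome biogenesis, replication and cholesterol synthesis no member changed by 2-fold. Ribosome biogenesis and translation factors gave 11 falls and 3 rises among 26, beside 12.5% lower and 16.4% higher over all genes (15 and 0 with totals-only scaling, and 1 rise without p65 WT replicate 6), with NOP56, a core protein of small nucleolar particles, going from 429 to 389 CPM. In the replication and mitosis list 9 of 43 fell and 7 rose (13 and 6 with totals-only scaling), and CCND2, a G1 cyclin, fell from 54.0 to 38.1 CPM. Cholesterol and fatty acid synthesis gave 7 rises and 3 falls among 34, a balance that turned to 5 and 11 with totals-only scaling. Among families taken by name, of 276 solute carriers 59 rose and 39 fell (55 and 56 with totals-only scaling), and of 62 orphan G-protein-coupled receptors 15 rose and 5 fell (14 and 8 with that scaling). None of the counts in these lists and families was tested against the shares of all genes, 16.4% higher and 12.5% lower.

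Markers of the line itself and of other cell types were read beside these changes. Of 12 HEK293 markers 2 rose and 6 fell, and the falls became 3 without vector replicate 2. Their summed level was 2660 CPM with vector and 2560 CPM with p65 WT. PAX8, a kidney factor, rose from 0.213, 0.147 and 0.0552 to 4.98, 2.97 and 4.88 CPM. Of 8 listed markers of the differentiated nephron 4 were tested, of which 2 rose and 2 were not called. The 2 that rose were NPHS1 and AQP1. NPHS1, nephrin of the podocyte slit, had 0.266, 0.195 and 0.166 CPM with vector and 42.7, 37.1 and 45.2 CPM with p65 WT, and AQP1, a water channel of the tubule, rose from 0.936 ± 0.365 to 6.88 ± 0.94 CPM. Both of the HEK293 markers that rose, NPHS1, 2 of the 3 endothelial markers that rose and the leukocyte marker that rose had under 0.5 CPM with vector. They entered through the p65 libraries, so their direction was fixed by the filter. Of 7 endothelial markers 4 were tested and 3 rose, CLDN5, a tight junction protein, from 0.213, 0.391 and 0.662 to 16.8, 15.6 and 20.7 CPM. Of 7 leukocyte markers 3 were tested and 1 rose, ITGAM from 0.42 to 2.23 CPM, with a summed level of 3.81 and 5.43 CPM, and of 6 fibroblast markers 2 were tested. Whether these levels reflect few or many cells was not tested.

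Noncoding and protein-coding genes were set side by side, without a test. Calls higher made up 11.4% of long noncoding genes, 12.0% of pseudogenes and 17.7% of protein-coding genes. Of 2445 long noncoding genes 231 (9.45%) were at least 2-fold higher, of 1151 pseudogenes 97 (8.43%) and of 14325 protein-coding genes 793 (5.54%, RELA among them), and these groups differ in level. Among genes with a read but no more than 1 CPM with vector, 35.1% of the protein-coding genes were at least 2-fold higher, against 24.3% of all genes there. Genes of low vector level enter the test partly through libraries where they are high. All these shares are therefore in part set by the filter, and no reading is made of their differences. AC092666.1, LINC02538 and AL356234.2, long intergenic RNAs, had no read in any vector library and 28.9 ± 2.67, 17.1 ± 1.54 and 16.2 ± 1.51 CPM once p65 WT was restored, at least 553-fold, 326-fold and 311-fold higher. Among falls, HIST2H2BC, a histone pseudogene, went from 34.8 ± 2.03 to 17.4 ± 1.03 CPM and KCNJ2-AS1, an antisense RNA, from 2.18 ± 0.59 to 0.916 ± 0.411 CPM.

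Genes at least 2-fold higher were also described by their place on the chromosomes. The next tested gene on at least 1 side was also at least 2-fold higher for 387 of 1140 (33.9%), against 1763 of 17017 others (10.4%). Counting only genes within 50 kb that do not overlap, the shares were 18.2% and 4.95%. Neighbours are not independent and a shared read or transcript can join them, so this is a description without a test. Of the 1140 genes, 757 had under 1 CPM with vector. Such genes count as neighbours partly because they passed the filter through libraries where they were high. The excess and the runs below may therefore be in part built in by the filter. There were 39 runs of 3 or more adjacent tested genes, 139 genes in all, 19 of them without overlapping neighbours. The longest run, with 6 genes, was the chemokine cluster CXCL8, CXCL6, CXCL1, CXCL5, CXCL3 and CXCL2 on chromosome 4, from 73740506 to 74099293 (GRCh38).

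Other runs followed receptor families or held a target with unrelated neighbours. On chromosome 2, from 101991844 to 102452565, IL1R2, IL1R1, IL1RL2, IL18R1 and IL18RAP were all at least 2-fold higher, from IL1R1 (1.56 to 5.13 CPM) to IL1RL2, which had no vector read and 1.35 CPM with p65 WT. On chromosome 6, from 137657998 to 137883312, the run AL356234.2, AL356234.3, AL357060.1 and TNFAIP3 held the noncoding RNAs upstream of that inhibitor. On chromosome 11, IGF2, IGF2-AS and TH, the tyrosine hydroxylase gene, formed a run from 2129112 to 2171877. On chromosome 21, ABCG1 lay in a run of 5 with ZNF295-AS1, UMODL1, UBASH3A and RSPH1, and UMODL1, a uromodulin-like protein, had 1 vector read and 12.8 ± 2.45 CPM with p65 WT.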

How the data were processed

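RNA came from p65 knockout HEK293A cells, with poly-A capture per the labels' protocols. The authors deposited raw read counts per gene. HISAT2 2.0.5 is named in the submitters' processing notes. Which counting tool, strand setting and build were used is not stated in labels or headers. Gene positions were read as GRCh38. The deposited 5′ end lay on RefSeq's start for some genes, such as NFKBIA, and apart from it for others, such as CCL20 and SELE.

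The expression filter, TMM and quasi-likelihood test of edgeR 4.0.16 (R 4.3.3, limma 3.58.1) were run in a single fit of 9 libraries, with Benjamini-Hochberg adjustment over 18195 genes at 0.05. Values are CPM as mean ± SD (n = 3) or log2 folds ± SE, and RPKM uses the deposited gene length. A group without reads was set at 3 counts (0.0523 CPM with vector). Ratios on 1 to 3 counts carry 95% intervals; floors and intervals cover counting error only. Depth was 15989601 to 20162267 counts. Libraries of a group differed by more than sampling noise. On simulated data for this comparison (17257 genes), 35 of 50 genes changed 1.5-fold and 43 of 50 changed 2-fold were recovered. The changed genes were drawn from those above 1 CPM with vector and all others were left unchanged. These rates therefore do not cover genes under 1 CPM, or data in which as many genes change as here.

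The comparison, the 41 gene lists and the families were chosen with earlier results of these data known. Genes named were the 15 that gained most RPKM, the 20 largest rises and falls at 5 CPM or more with vector, the most abundant with at most 3 vector reads, the largest noncoding changes and leading list members. Further list and run members were named for their role after their values were seen. Alternatives were DESeq2 1.42.0 (test and size factors), totals-only scaling, no filter, the 6 libraries alone and each library left out.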

Additional observations from a re-analysis of the deposited data

How the results depend on the processing

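The counts of genes called, of genes higher, of genes at least 2-fold lower, of list members called (549) and of genes at least 2-fold higher that had under 1 CPM with vector (757) stayed within 1.5 times their value under all 11 alternative fits. However, the counts of list members and of genes under 1 CPM took in only genes that passed the main filter. Genes that an alternative added were left out of both, so the steadiness of these counts does not cover such genes. The 2268 genes lower became 3659 with libraries scaled by their totals alone, and the 1141 genes at least 2-fold higher became 1726 with no filter on low counts, which tests more genes of low level. With each library left out in turn there were 4493 to 4963 genes called, 2712 to 2932 higher, 1781 to 2031 lower, 1147 to 1248 at least 2-fold higher and 49 to 69 at least 2-fold lower. Of 300 genes selected by the naming rule, all called, 45 lost the call in at least 1 alternative; SERF1A (-4.26) and AC007325.4 (-0.88) reversed without vector replicate 3, and ranged from -4.84 to 0.87 and from -1.22 to 0.052 with a library left out. The share of kB promoters among genes higher by under 2-fold (4.16%) was 10.9% with the degenerate consensus, 4.02% with the sister form and 2.61% in the part of the window nearest the start; among genes not called (1.75%) it was 6.16%, 2.50% and 0.797%. The share of genes at least 2-fold higher with such a neighbour (33.9%) was 18.2% within 50 kb without overlaps. The causes of these differences were not tested. No paired analysis was possible because the groups share no replicate number. Depth limits genes under 1 CPM, where few reads set the fold.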
